A study of Mus musculus with 7 samples.

Results

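The genes described here are the 5 subunits of the transcription factor NF-kB (Nfkb1, Nfkb2, Rel, Rela and Relb), 4 of its feedback inhibitors (Nfkbia, Nfkbie, Nfkbiz and Tnfaip3) and the cytokine gene Tnf. They were taken by symbol from a table of 10550 genes, which lists 10 of 10. The libraries hold RNA of Kupffer cells, which are macrophages that live in the liver sinusoids. The cells were sorted from male C57BL/6 mice 8 weeks old with no treatment. The 4 control libraries came from Commd10fl/fl mice, which carry loxP-flanked Commd10 and no Cre. The 3 Commd10-deficient libraries, labelled Clec4FDCommd10, came from Commd10fl/fl mice crossed with Clec4f+/cre mice, so that Cre was driven by the locus of a Kupffer cell lectin. Cre and the loss of Commd10 therefore came together and cannot be told apart. Sample titles divide the controls into a first pair, control replicates 1 and 2, here named set 1, and a second pair, replicates 3 and 4, named set 2. What that division means is not given in the sources used here. Whether each library came from its own animal is not labelled either, and p-values then reflect library-to-library spread that may be technical.

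NF-kB is a family of dimeric transcription factors held in the cytoplasm by inhibitor proteins of the IkB family. Signals from Toll-like, interleukin-1 and TNF receptors activate the IkB kinase, the inhibitor is degraded, and the dimers enter the nucleus and switch on cytokine, chemokine and survival genes. Several of those targets encode inhibitors, which close a negative feedback loop, and Kupffer cells are a main source of TNF in the liver. COMMD1, the founding member of the family to which COMMD10 belongs, is known as a factor that promotes the turnover of nuclear RELA.

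Depth differed strongly between libraries. Control set 1 held 4270240 and 3207144 counts, set 2 held 230942 and 267553, and the deficient libraries held 105462 to 124016. Levels are given as CPM, counts scaled to a common library size. A floor of 3 counts equalled 0.657 CPM at the highest depth and 28.0 CPM at the lowest, and since set 1 is the deep one, depth and control set cannot be told apart. The summed level of 14 Kupffer cell marker genes, 14 of 14 in the table, was 70525 to 72648 CPM in set 1, 71236 to 71715 CPM in set 2 and 76578 to 82281 CPM in the deficient libraries. Commd10 itself had 167, 130, 7 and 1 counts in the controls and 0, 4 and 2 in the libraries labelled Commd10-deficient, which does not separate the groups at this depth. A 3′ tag outside the deleted part would still be counted, and the deleted part is not given in the sources used here.

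No subunit, inhibitor or Tnf passed the test between genotypes. Of the 10 genes, 9 had enough counts to be tested and 0 of 9 were called in Commd10-deficient against all control libraries, where 6.04% of 3412 tested genes were called (edgeR's quasi-likelihood F test, Benjamini-Hochberg adjusted p under 0.05). At an unadjusted p under 0.05, 1 of 9 passed, Nfkbiz, beside 825 of 3412 genes tested. DESeq2 and limma-voom also called 0 of 9, beside 372 and 200 of 3412 genes. The median log2 fold change of the 9 genes was -0.11, beside -0.05 over all genes tested. With 1 exception, Nfkbiz, the Commd10-deficient and control ranges overlapped for every gene, while 25% of all tested genes had ranges that did not overlap. Against set 1 alone, 3 of 9 did not overlap, beside 46% of all tested genes. Against set 2 alone it was 3 of 9, beside 48.3%.

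**Figure D1:**
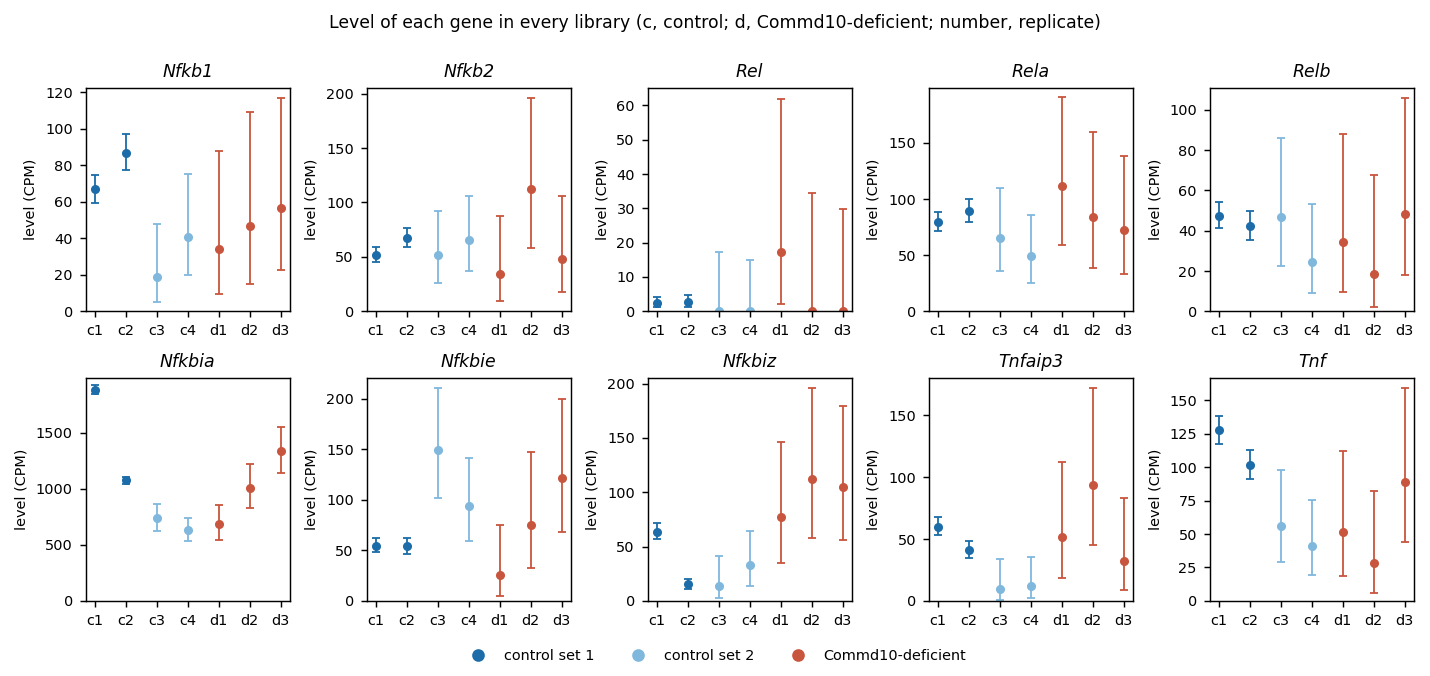
Level of each of the 10 genes in CPM (vertical axes start at 0) in the 7 libraries, with a point per library and an error bar for the exact Poisson 95% interval of its count. Nfkbiz lies at 77.2 to 112 CPM in the deficient libraries and at 14.0 to 63.7 CPM in the controls, and Tnfaip3 and Nfkbia lie lower in set 2 than in set 1.

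Rela encodes p65, the subunit that carries the main transactivation domain. Its levels were 79.5 and 89.1 CPM in set 1, 65.3 and 49.1 CPM in set 2 and 111, 84.1 and 72.8 CPM in the deficient libraries. The deficient libraries all lay above set 2, as for 24.3% of all tested genes, and around set 1. Against all controls the log2 fold change reached 0.29 (SE 0.39, adjusted p = 0.692), with a 95% interval of -0.54 to 1.12, which runs from 0.686 to 2.17 times the control level.

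Nfkb1 encodes p105, the precursor of the p50 subunit and itself an IkB-like inhibitor. It was counted at 66.8 and 86.6 CPM in set 1, at 18.7 and 40.9 CPM in set 2 and at 34.3, 46.7 and 56.6 CPM in the deficient libraries. Each Commd10-deficient library lay below both libraries of set 1, as for 23.1% of all tested genes, and the deficient range overlapped that of set 2. The fitted log2 fold change was -0.35 (SE 0.53, adjusted p = 0.728) against all controls and -0.73 (SE 0.44, adjusted p = 0.263) against set 1.

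Nfkb2, whose product p100 is processed to p52 in the non-canonical pathway, was at 52.1 and 67.7 CPM in set 1, 51.3 and 65.4 CPM in set 2 and 34.3, 112 and 48.5 CPM in the deficient libraries. The control sets covered nearly the same range, inside that of the deficient libraries, which rest on 4, 12 and 6 counts. Its log2 fold change was 0.11 (SE 0.45, adjusted p = 0.898). Nfkb2 shares exonic sequence on the opposite strand with Psd and with the lncRNA AC114539.1, and the treatment of strand in counting is not given, so its counts may include theirs.

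Relb, the partner of p52, was at 47.3 and 42.1 CPM in set 1, 46.7 and 24.5 CPM in set 2 and 34.3, 18.7 and 48.5 CPM in the deficient libraries. The ranges overlapped in all 3 sets, and the log2 fold change came to -0.26 (SE 0.54, adjusted p = 0.805). Rel, which encodes c-Rel, had 11 and 9 counts in set 1, 0 and 0 in set 2 and 2, 0 and 0 in the deficient libraries. The counts of 0 allow up to 17.2 and 15.1 CPM in set 2 and up to 34.5 and 29.8 CPM in the deficient libraries (exact Poisson 95% limits), above the 2.41 and 2.58 CPM of set 1. Rel was the gene left untested, and a difference between groups was not detectable at this depth.

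Nfkbiz encodes IkB-zeta, an atypical nuclear IkB protein that is induced by Toll-like receptor and interleukin-1 signals and that helps switch on secondary response genes. It was measured at 63.7 and 15.2 CPM in set 1, at 14.0 and 32.7 CPM in set 2 and at 77.2, 112 and 105 CPM in the deficient libraries. All 3 deficient libraries were above all 4 controls, although the lower Poisson limits of the 3, 35.3 to 57.9 CPM, reached below the highest control. The log2 fold change reached 1.51 (SE 0.54, unadjusted p = 0.0146, adjusted p = 0.106), with a 95% interval of 0.35 to 2.68. Nfkbiz passed the filter on low counts through 1 library of set 1, 0 of set 2 and all 3 deficient libraries, so it was kept largely through the group in which it is high. The libraries of set 1 differed from each other by 4.19-fold (95% interval 3.12 to 5.73, counting error only), the widest ratio among the 10 genes within that set. Without control replicate 1 the log2 fold change was 2.31 (adjusted p = 0.0241), and without set 1 it was 2.05 (adjusted p = 0.0144), both past the threshold. Control replicate 1 was the 1 control that had passed the filter. Filtered fits without it, here and against set 2 below, therefore kept Nfkbiz only through the group in which it is high. Against each set in a model of 3 groups, it was 1.30 (SE 0.56, adjusted p = 0.117) against set 1 and 2.03 (SE 0.77, adjusted p = 0.0735) against set 2. The latter passed with no filter on low counts (adjusted p = 0.0285), with only the libraries compared (0.0144) and without control replicate 1 (0.00504) or 2 (0.0120), fits in which Tnfaip3 was not called or not tested.

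Nfkbia encodes IkB-alpha, the inhibitor that captures RELA and p50 and that NF-kB itself induces. Its levels were 1883 and 1076 CPM in set 1, 737 and 634 CPM in set 2 and 686, 1009 and 1334 CPM in the deficient libraries. The deficient libraries spanned the gap between the control sets and overlapped both. The log2 fold change against all controls was -0.11 (SE 0.37, adjusted p = 0.879). It was -0.55 (SE 0.27, adjusted p = 0.170) against set 1 and 0.56 (SE 0.29, adjusted p = 0.181) against set 2, and these contrasts share the deficient libraries. Commd10-deficient replicate 3 had the highest Nfkbia of the deficient libraries and also the highest sum of neutrophil markers. Of these markers 6 of 10 were in the table, with Ngp at 0 in all deficient libraries. The sum was 210 CPM from 26 counts, beside 84.1 to 85.7 CPM in the other 2. It was 101 to 103 CPM in set 1 and 40.9 to 46.7 CPM in set 2. In replicate 3, S100a8 and S100a9 were the highest among deficient libraries, at 72.8 and 80.8 CPM. Csf3r was lowest there, at 32.3 CPM beside 51.4 and 46.7 CPM. The part of neutrophils in the Nfkbia level was not tested.

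Nfkbie encodes IkB-epsilon, a slower feedback inhibitor. It was at 54.7 and 54.2 CPM in set 1, at 149 and 94.1 CPM in set 2 and at 25.7, 74.7 and 121 CPM in the deficient libraries. Those last values ran from below all controls to inside the range of set 2, and the fitted log2 fold change was -0.14 (SE 0.54, adjusted p = 0.887). Nfkbie was the only one of the 10 genes for which set 2 lay wholly above set 1.

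Tnfaip3 encodes A20, a ubiquitin-editing enzyme that shuts off signalling between the TNF and Toll-like receptors and the IkB kinase. The gene was at 60.0 and 41.3 CPM in set 1, at 9.33 and 12.3 CPM in set 2 and at 51.4, 93.4 and 32.3 CPM in the deficient libraries. Control set 2 lay below all 5 other libraries, on 2 and 3 counts. Tnfaip3 passed the filter on low counts through 2 libraries of set 1, 0 of set 2 and 2 deficient libraries. It was thus kept only through the groups in which it is high. The log2 fold change came to 0.68 (SE 0.63, adjusted p = 0.553) against all controls and 0.19 (SE 0.46, adjusted p = 0.811) against set 1, but 2.40 (SE 0.73, adjusted p = 0.0313) against set 2. The last was the 1 call among 9 genes in that contrast, where 19.1% of tested genes were called and 8.7% were called higher. It was lost with limma-voom (adjusted p = 0.253), with no filter on low counts (0.0501), without control replicate 3 (0.108) and without Commd10-deficient replicate 1 (0.0784) or 2 (0.150). With only the libraries compared in the fit, Tnfaip3 was not tested, and it was also not tested without control replicate 1, 2 or 4.

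Tnf, the cytokine that signals through the TNF receptors back to NF-kB, was at 128 and 102 CPM in set 1, 56.0 and 40.9 CPM in set 2 and 51.4, 28.0 and 88.9 CPM in the deficient libraries. All 3 deficient libraries lay below set 1, as for 23.1% of all tested genes, and overlapped set 2. The log2 fold change came to -0.61 (SE 0.52, adjusted p = 0.507) against all controls, -1.003 (SE 0.42, adjusted p = 0.103) against set 1 and 0.25 (SE 0.53, adjusted p = 0.776) against set 2. Against set 1, 0 of the 9 genes were called, beside 19.3% of genes tested. There 2 of 9, Nfkbiz and Tnf, had an unadjusted p under 0.05, beside 1120 of 3412 genes tested. With no filter on low counts 2 of 10 were called there, Nfkbia and Tnf, beside 1127 of 10550 genes. In bulk RNA, fewer cells that express a gene and less RNA per cell cannot be told apart, here and in each result above.

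**Figure D2:**
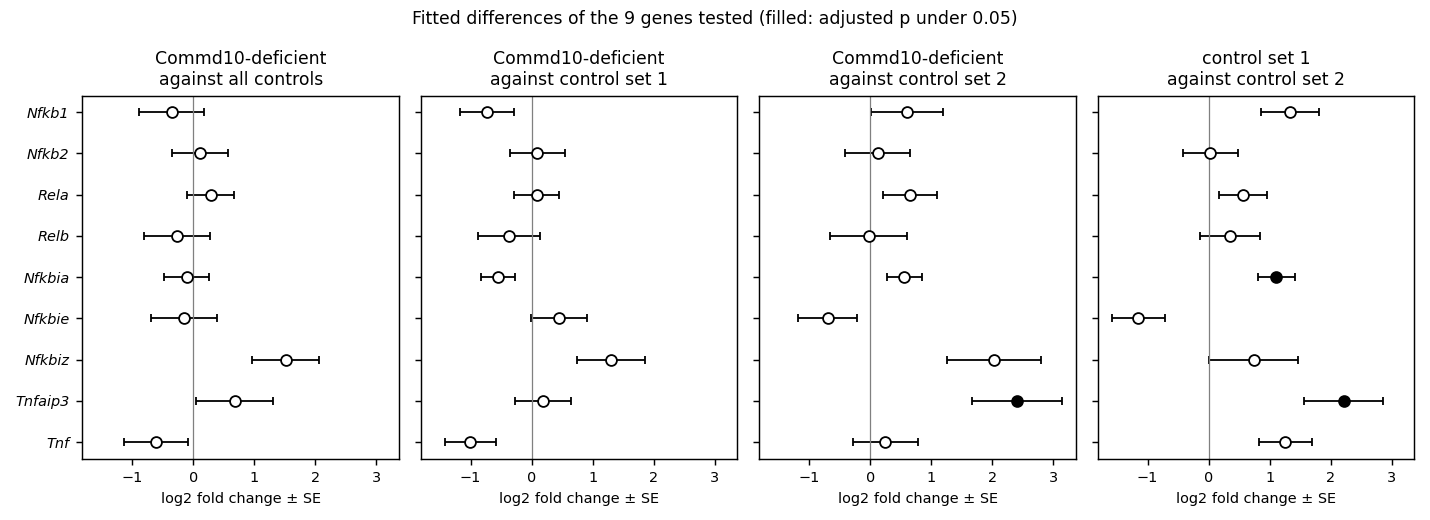
Log2 fold change of the 9 tested genes from the edgeR fits, with error bars of 1 SE, in Commd10-deficient against all controls, against each control set, and in set 1 against set 2. Filled points passed an adjusted p of 0.05: Tnfaip3 at 2.40 against set 2 and, between the control sets, Tnfaip3 at 2.21 and Nfkbia at 1.11.

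The control sets, which have the same labelled genotype, differed from each other in this gene group about as often as in other genes. Between set 1 and set 2, 2 of the 9 genes were called, both higher in set 1, where 18.7% of tested genes were called and 7.8% were called higher. Nfkbia was higher by 1.11 on the log2 scale (SE 0.30, adjusted p = 0.0177) and Tnfaip3 by 2.21 (SE 0.64, adjusted p = 0.0241). Tnfaip3 passed the filter on low counts through 0 libraries of set 2, the lower set. Without control replicate 1, 3 or 4 the call of Nfkbia was lost (adjusted p = 0.105, 0.0690 and 0.143), and without control replicate 3 that of Tnfaip3 was lost (0.109). Limma-voom called neither (0.0801 and 0.141) and called Nfkbie, 1 of 9, beside 685 of 3412 genes.

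Other genes of the group showed similar sizes without passing. Nfkb1 had a log2 difference of 1.33 (SE 0.47, adjusted p = 0.0558), Tnf of 1.25 (SE 0.43, adjusted p = 0.0513) and Nfkbie of -1.15 (SE 0.43, adjusted p = 0.0694). Nfkb1 also passed the filter through 0 libraries of set 2. Of the 9 tested genes, 6 had ranges that did not overlap between the control sets, beside 63.5% of all tested genes. The median of the 9 was 0.74, beside -0.05 over all genes tested. Scaling by table totals alone moved that median of all genes to 0.17 and the split of called genes from 266 higher and 371 lower to 437 higher and 231 lower, and Nfkb1 and Tnf were then also called.

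The promoters of the subunit genes, the feedback inhibitors and Tnf were searched for the binding motif of NF-kB itself. Whether the motif has a part in the difference between control sets was not tested. RefSeq promoter sequences (GRCm38.p6) were at hand for 7 of the 10 genes, none of them Nfkb1, Relb or Nfkbiz. The kappa B consensus, the kind of sequence that NF-kB dimers bind, was matched on either strand within 250 bases upstream of 7 of their 10 start sites, which belong to 5 genes. The same holds for 3.9% of 32851 mouse promoters, counted per start site. A match is a description of the letters and not a measured site, and Rela and Tnf had none in this window. Of these genes only Nfkbia is shown with the whole window, chr12:55492648-55492897 on the minus strand, because it had the larger counts of the 2 genes called between the sets. The match is in capitals and starts 29 bases before the transcription start.

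Nfkbia promoter: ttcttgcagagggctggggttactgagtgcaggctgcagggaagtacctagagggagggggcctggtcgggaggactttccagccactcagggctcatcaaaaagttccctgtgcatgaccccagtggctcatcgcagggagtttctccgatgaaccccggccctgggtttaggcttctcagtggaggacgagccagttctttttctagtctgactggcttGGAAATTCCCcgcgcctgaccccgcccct

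The 8 other runs, in the remaining inhibitors and in the subunit genes, are given in 30-base windows, 5′ to 3′ on the strand of the gene, with the match in capitals. Overlapping matches are merged into 1 run. They are shown so that the letters of the feedback inhibitors can be set beside those of the subunit genes.
Tnfaip3, chr10:19015516-19015545, minus strand: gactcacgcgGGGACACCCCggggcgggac
Tnfaip3, chr10:19015403-19015432, minus strand: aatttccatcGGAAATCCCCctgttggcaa
Nfkbie, chr17:45555584-45555613, plus strand: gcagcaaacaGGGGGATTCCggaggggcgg
Nfkb2, chr19:46304689-46304718, plus strand: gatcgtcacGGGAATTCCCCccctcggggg
Nfkb2, chr19:46304716-46304745, plus strand: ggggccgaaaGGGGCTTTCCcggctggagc
Nfkb2, chr19:46305449-46305478, plus strand: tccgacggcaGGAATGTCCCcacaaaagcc
Nfkb2, chr19:46305695-46305724, plus strand: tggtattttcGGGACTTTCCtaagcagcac
Rel, chr11:23771041-23771070, minus strand: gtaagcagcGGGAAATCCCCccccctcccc

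In the annotation of the same build, Nfkbia lies at chr12:55489410-55492647, Tnfaip3 at chr10:19000910-19015657, Nfkbiz at chr16:55811375-55838899, Nfkb1 at chr3:135584655-135691547 and Tnf at chr17:35199381-35202007, all on the minus strand. Rela lies at chr19:5637483-5648130 and Nfkbie at chr17:45555703-45563169 on the plus strand. Nfkb2 lies at chr19:46304320-46312385 on the plus strand. By these coordinates all runs of Tnfaip3 and Nfkb2 lie inside the annotated gene, although upstream of the RefSeq starts used for the search. Except for Nfkb2, none of the 10 genes shares exonic sequence with another annotated gene.

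Calls between genotypes among other genes of the pathway stand beside 3.46% called higher and 2.58% called lower over all genes tested. Of 32 NF-kB target genes, 17 were tested in Commd10-deficient against all controls, 2 rose and 1 fell, and their median was 0.15. Vcam1, an adhesion molecule for leukocytes, was at 132 and 163 CPM in set 1, 70.0 and 115 CPM in set 2 and 497, 439 and 388 CPM in the deficient libraries. These do not overlap, and Vcam1 rose by 1.83 on the log2 scale (SE 0.31, adjusted p = 0.0126). Icam1, another leukocyte adhesion molecule, was at 268, 291, 210 and 331 CPM in the controls and 103, 74.7 and 121 CPM in the deficient libraries. It fell by 1.46 (SE 0.33, adjusted p = 0.0240), while Il1b, which encodes interleukin-1 beta, rose by 0.99 (adjusted p = 0.0256). Liver sinusoidal endothelial cells also express Vcam1. The summed level of their 12 markers, 12 of 12 in the table, was 1063 to 1149 CPM in set 1, 765 to 882 CPM in set 2 and 729 to 789 CPM in the deficient libraries, with Kdr at 0 in set 2 and in the deficient libraries. The part of endothelial RNA in the level of Vcam1 was not tested.

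**Figure D3:**
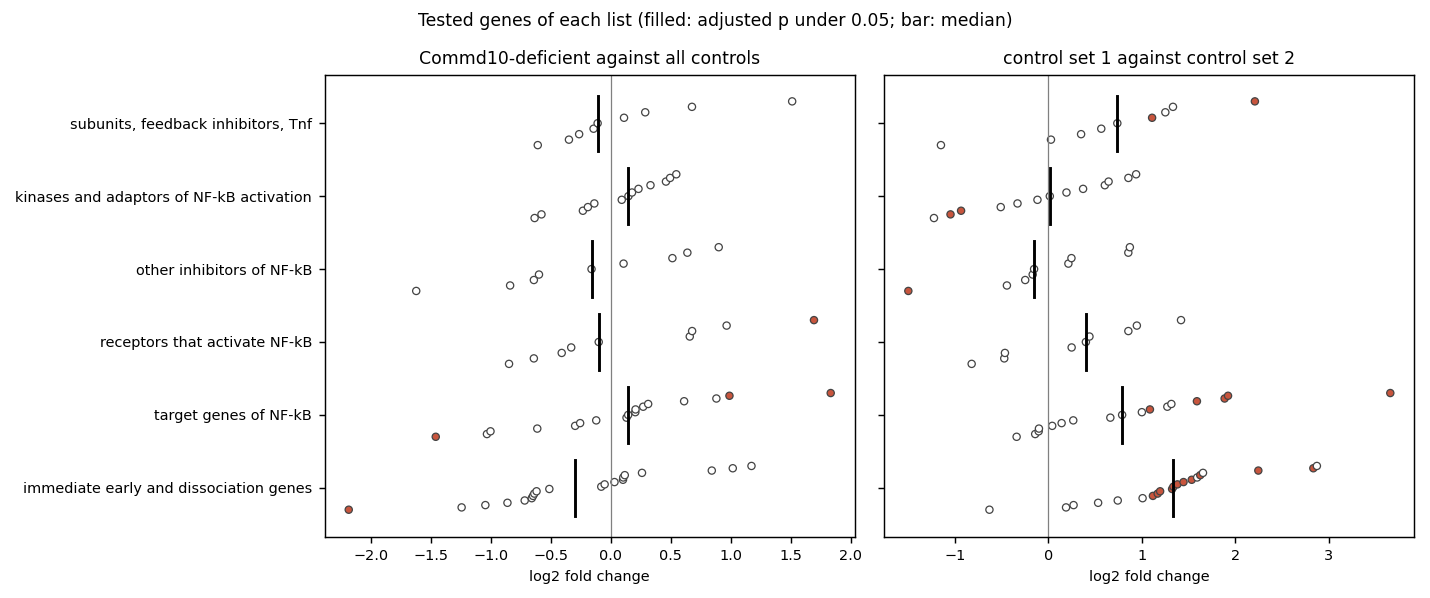
Log2 fold change of each tested gene in 5 lists of the NF-kB pathway and its context, and in the 9 tested NF-kB genes, between genotypes (left) and between the control sets (right), with a bar for the list median. Filled points passed an adjusted p of 0.05, among them Vcam1 at 1.83, Tlr4 at 1.69 and Icam1 at -1.46 in Commd10-deficient against all controls.

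Of 18 receptors that activate NF-kB, 9 were tested and 1 rose, beside the same 3.46%, so the count says nothing particular to receptors. Tlr4, the receptor for bacterial lipopolysaccharide, was at 22.6 to 37.3 CPM in the controls and at 94.3, 93.4 and 72.8 CPM in the deficient libraries, a log2 fold change of 1.69 (SE 0.43, adjusted p = 0.0338). Every deficient library and no control reached the 43.3 CPM that the filter on low counts asked for. Tlr4 was therefore kept only through the group in which it is high. Cd14, its co-receptor, was at 420 to 630 CPM in the controls and 792 to 887 CPM in the deficient libraries, with a log2 fold change of 0.68 (adjusted p = 0.119). The median of the 9 receptors was -0.10. None of these calls, nor those of Vcam1, Icam1 and Il1b, held without Commd10-deficient replicate 1 or 2. In those edgeR fits 0 of all tested genes were called, with 666 and 683 at an unadjusted p under 0.05, and the signs of these genes were kept. Without Commd10-deficient replicate 3, Tlr4, Icam1 and Il1b missed the threshold (adjusted p = 0.0730, 0.0542 and 0.0718) and Vcam1 kept its call. With no filter on low counts Tlr4 and Il1b, and with limma-voom Icam1, also missed it (adjusted p = 0.0972, 0.0909 and 0.0653), and Tlr4 did so without set 1 (0.0715) and without control replicate 1 (0.0866).

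Of 19 other inhibitors, 9 were tested and 0 were called by edgeR, with 2 at an unadjusted p under 0.05 and a median of -0.16. Over all genes tested, 825 of 3412 had an unadjusted p under 0.05. Otulin, which removes linear ubiquitin chains from the receptor complexes, was at 56.0 to 67.4 CPM in the controls and 17.1 to 24.3 CPM in the deficient libraries, with a log2 fold change of -1.62 (SE 0.48, adjusted p = 0.0576). It passed the filter on low counts only through the controls, the group in which it is high. Bcl3, a nuclear IkB protein, had a log2 fold change of 0.90 (adjusted p = 0.110) and Commd1 of -0.84 (adjusted p = 0.215). Of 29 kinases and adaptors, 13 were tested and 0 were called by edgeR. Beside the same 825 of 3412, 0 of the 13 had an unadjusted p under 0.05, and their median was 0.15. Of these, Irak1, a kinase of Toll-like receptor signalling, had a log2 fold change of 0.49 (adjusted p = 0.352).

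Between control sets, 5 of the 17 targets were higher in set 1 and 0 were lower, with a median of 0.79, beside 7.8% called higher and 10.9% called lower over all genes tested. The chemokine genes Ccl3, Ccl4 and Cxcl1 were higher by 1.59, 1.92 and 3.66 on the log2 scale (adjusted p = 0.00312, 0.00327 and 0.00673). No library of set 2 reached the cutoff of the filter on low counts for Cxcl1. Cxcl1 had 0 counts in control replicate 3, so its fold depends on the prior count, and without that library its call was lost (adjusted p = 0.0545). Immediate early genes, induced within minutes of a stimulus, were listed together with genes induced by enzymatic digestion of tissue, among them heat-shock genes. This list moved the same way: 11 of the 20 tested were higher in set 1 and 0 were lower, with a median of 1.33. Dusp1, Zfp36 and Jun were higher by 1.32, 1.38 and 1.45 (adjusted p = 0.00264, 0.00355 and 0.00494), and without control replicate 4 the calls of Zfp36 and Jun were lost (0.0555 and 0.0721). In Commd10-deficient against all controls, 1 of these 20 was called, beside 2.58% of all genes tested called lower. It was the transcription factor Klf2, which fell by 2.19 (SE 0.42, adjusted p = 0.0164). That call was lost with limma-voom (adjusted p = 0.0771) and without Commd10-deficient replicate 1, 2 or 3 (0.142, 0.127 and 0.0512). The part of digestion or depth in the difference between control sets was not tested.

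**Figure D4:**
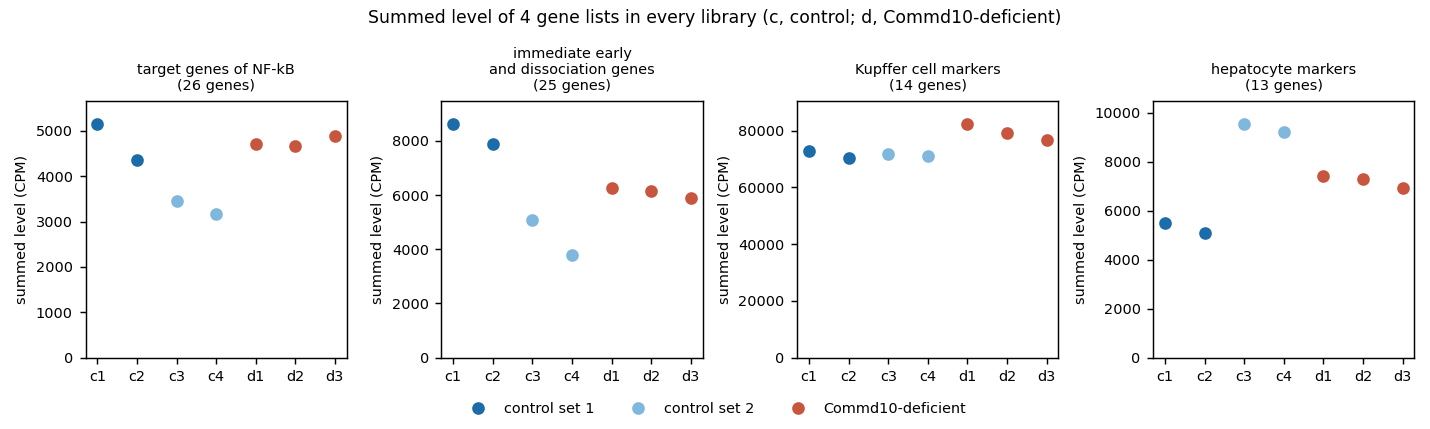
Summed level in CPM of each list in each library, with vertical axes from 0. Lists are the NF-kB targets, the immediate early and dissociation genes and the markers of Kupffer cells and of hepatocytes. The immediate early and dissociation genes sum to 7895 to 8614 CPM in set 1, 3800 to 5096 CPM in set 2 and 5894 to 6259 CPM in the deficient libraries.

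The sums placed the NF-kB genes between the same bounds. The 10 genes together were at 1576 to 2437 CPM in set 1, 994 to 1148 CPM in set 2 and 1123 to 1908 CPM in the deficient libraries, mostly through Nfkbia. Target sums were 4355 to 5145, 3174 to 3463 and 4661 to 4875 CPM in the same order. Hepatocyte markers, 13 of 13 in the table, were at 5090 to 5517 CPM in set 1, 9215 to 9534 CPM in set 2 and 6929 to 7399 CPM in the deficient libraries. That is the reverse order of the immediate early and dissociation genes. Monocyte markers, 8 of 10 in the table with Chil3 at 0 in the deficient libraries, were at 1220 to 2049, 919 to 1166 and 1294 to 1689 CPM. The part of hepatocyte RNA or monocytes in the results was not tested.

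The genes whose pattern was most like that of Rela and of Nfkbia were sought by the mean absolute difference in log2 CPM over the 7 libraries after each gene was centred, among 2168 genes. Closest to Rela were Gng10 at 0.09, Clk1 at 0.10, Fcgr3 at 0.11, Atp6v1d at 0.11 and Clec1b at 0.12, beside a median of 0.48. Counting error did not enter these distances. Rela rests on 14 and 12 counts in set 2 and on 13, 9 and 9 in the deficient libraries. Its Poisson interval in Commd10-deficient replicate 2 ran from 38.4 to 160 CPM. Distances of 0.09 to 0.12 are small beside such an interval, so likeness to Rela cannot be told from counting error. Closest to Nfkbia were Pmp22 at 0.14, Rhob at 0.17, Grk6 at 0.19, Ppp1r15a at 0.20 and Ano6 at 0.21, beside a median of 0.60. Of the other NF-kB genes, Tnf was at 0.33 from Nfkbia and Nfkb1 at 0.39, but both have under 5 counts in some library and lie outside the genes compared.

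**Figure D5:**
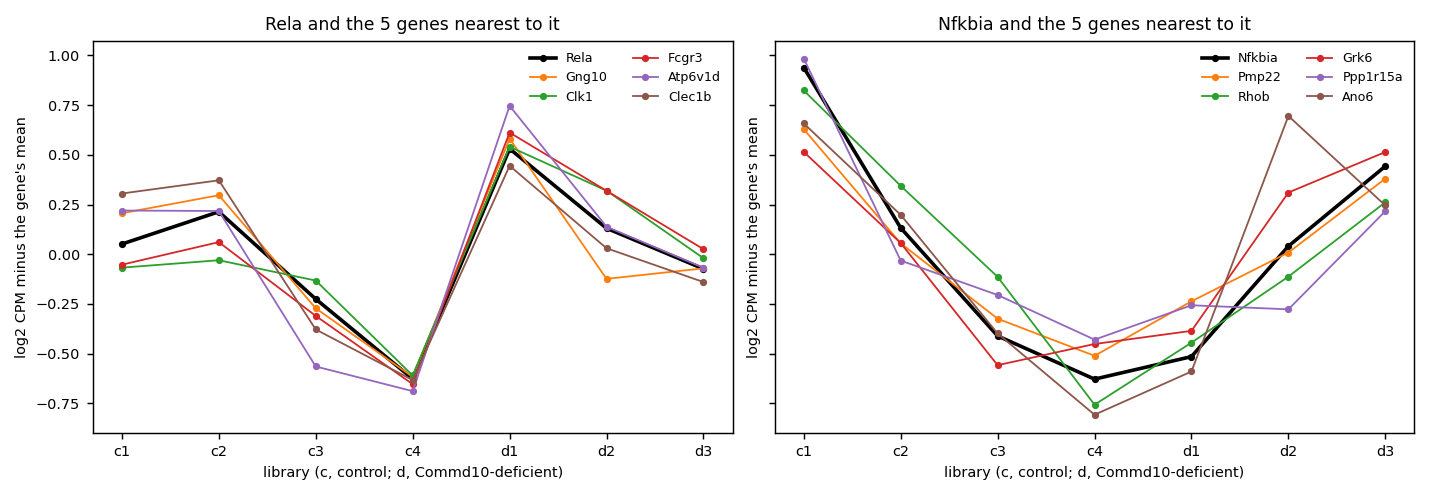
Centred log2 CPM in the 7 libraries for Rela and for Nfkbia, each with its 5 nearest genes. All 6 genes of the Nfkbia panel lie above their own mean in control replicate 1 and below it in both libraries of set 2. The 5 were chosen for their likeness over these 7 libraries, so the shared pattern follows from that choice.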

How the data were processed

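RNA of Kupffer cells was measured in 7 libraries by a bulk MARS-Seq method, which counts unique molecular identifiers at 3′ ends. The authors deposited raw counts per gene, per the file headers, and a normalized signal that equals those counts divided by a single factor per library. The genome build mm10 and the tools cutadapt, HTSeq and DESeq2 are listed in the submitters' processing notes, with no versions. Aligner and strand handling are not given there.

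Counts were tested with edgeR 4.0.16 in R 4.3.3 (quasi-likelihood F test, TMM factors, robust shrinkage, default filter on the genotype groups). The filter left out 7138 of 10550 genes. P-values were adjusted by Benjamini-Hochberg over 3412 genes, with calls under 0.05. A model with 3 levels compared each control set. Depth limits precision to a floor of 3 counts, and Poisson intervals at 95% cover counting error only. Replicates are numbered by record order and pair no libraries. Every pair of libraries within a set differed beyond sampling noise. Alternatives were DESeq2 1.42.0, limma-voom (limma 3.58.1), other scaling, no filter, libraries or a control set left out, and only the compared libraries. The fit was tested on simulated data. Unmatched value columns numbered 0.

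The 10 genes and all gene lists were chosen with earlier results of these data known. Genes named are the 10 and, from each of 5 lists, those called between genotypes and the 3 with the smallest p in that comparison and the 3 between control sets, not all of which are printed; Kdr, Chil3, Ngp, Commd10 and the overlapping genes Psd and AC114539.1 are named outside this rule. Likeness was measured for the most abundant subunit and inhibitor, among genes averaging 20 CPM or more with 5 or more counts in every library, and a prior count of 2.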

Additional observations from a re-analysis of the deposited data

How the results depend on the processing

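No paired analysis was possible because replicates were numbered in record order, which pairs no libraries, so no replicate block was fitted. Of 802 log2 fold changes of single genes recomputed with 1 choice changed, 687 kept direction and side of the threshold, 49 lost and 36 gained a call, and 30 turned sign. The causes of the changes below were not tested. Genes called between genotypes, 206 in all controls, were 372 with DESeq2, 514 with no filter on low counts, 697 without control set 1 and 576 without control set 2, the last pair on fewer tested genes. Leaving out 1 library gave 0 to 276, with 60 without Commd10-deficient replicate 3 and 0 without Commd10-deficient replicate 1 or 2 (edgeR, 666 and 683 at an unadjusted p under 0.05). Against control set 1, 658 became 1127 with no filter and 410 to 665 without 1 library (436 without control replicate 1, 410 and 414 without Commd10-deficient replicates 1 and 2). Against control set 2, 650 became 191 with limma-voom and 222 to 728 without 1 library (296 and 254 without control replicates 3 and 4, 265 and 222 without Commd10-deficient replicates 1 and 2). Between control sets, 637 became 170 to 770 without 1 library (384, 275 and 170 without control replicates 2, 3 and 4).

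Of the NF-kB genes, 1 of the 4 tested was called against all controls without control set 1, beside 697 of 2202 genes. Without 1 library 0 to 1 were called there. The 1 was Nfkbiz without control replicate 1, among 5 tested, beside 187 of 2668 genes. Against control set 1, 2 were called with no filter and 0 to 1 without 1 library (Nfkbiz without control replicate 1, Nfkbia without control replicate 2, Tnf without Commd10-deficient replicate 3). Against control set 2, 0 were called with limma-voom, and Nfkbiz in place of Tnfaip3 with no filter, with only the libraries compared and without control replicate 1 or 2. Without 1 library 0 to 1 were called there (0 without control replicate 3 or 4 and without Commd10-deficient replicate 1 or 2). Between control sets, 1 was called with limma-voom, 4 with no filter, 4 with table totals and 0 to 4 without 1 library (0 without control replicate 1, 3 or 4, and 4 without Commd10-deficient replicate 3). A lone library left in a set was assumed to vary like the others, and genes that failed the filter in a smaller fit have no value there. With no filter all 10 NF-kB genes were tested. Such fits called 1127 of 10550 genes against control set 1, 738 against control set 2 and 919 between control sets. Between control sets, 668 of 3412 genes were called with table totals. Without Commd10-deficient replicate 3, 665 of 4061 genes were called against control set 1 and 770 between control sets. With only the libraries compared, 4 NF-kB genes were tested against control set 2, beside 697 of 2202 genes called.

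Signs turned for small log2 fold changes and for some larger ones. Among the latter were Nfkbiz between control sets (0.74 in the main fit) and Nfkbie against control set 1 (0.45). With limma-voom, Nfkbie was 0.046 against all controls, Nfkb2 -0.023 and Relb 0.048 against control set 2, and Nfkb2 -0.044 between control sets. With no filter, Nfkb2 was -0.13 against all controls, -0.21 against control set 1 and -0.020 against control set 2, while Rela was -0.22 and Tnfaip3 -0.11 against control set 1. Without control set 1, Nfkbia was 0.60. With table totals, Nfkb2 was -0.010 and Rela -0.020 against control set 1, and Relb 0.097 against control set 2. That scaling moved the median of all genes from -0.01 to -0.11 against control set 1 and from -0.01 to 0.11 against control set 2. Called genes then split 349 higher and 349 lower against control set 1 (395 and 263 otherwise) and 394 higher and 275 lower against control set 2 (297 and 353 otherwise).

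Without 1 library, against all controls, Nfkb2 ran from -0.55 to 0.38, Nfkbia from -0.39 to 0.28 and Nfkbie from -0.76 to 0.23. Against control set 1, Nfkb2 ran from -0.57 to 0.35, Rela from -0.16 to 0.20, Nfkbie from -0.16 to 0.81 and Tnfaip3 from -0.33 to 0.48. Against control set 2, Nfkb2 ran from -0.51 to 0.40, Tnf from -0.30 to 0.54 and Relb from -0.43 to 0.23. Between control sets, Nfkb2 ran from -0.090 to 0.24 and Nfkbiz from -0.60 to 1.53. Depth limits the deficient libraries most, where Relb, Rel, Nfkb1 and Tnfaip3 rest on at most 10 counts each.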
